A study of Mus musculus with 6 samples.

Results

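The transcription factors that drive the epithelial-mesenchymal transition (EMT) were followed in sorted mammary epithelial cells with and without Glis2. The 9 genes were Snai1, Snai2 and Snai3 of the Snail family, Zeb1 and Zeb2, Twist1 and Twist2, the homeobox gene Prrx1 and the forkhead gene Foxc2, chosen by name from the 54418 gene identifiers of the count table. All 9 were found there, and all 9 passed the filter on low counts.

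Cells were sorted by FACS from the mammary glands of 4-week-old C57BL/6 females, 3 of them Glis2+/+ and 3 Glis2-/-, with 1 library per mouse. The mutant allele was present in the germline, so that every tissue of the Glis2-/- mice carried it and not the sorted cells alone. Dead cells were stained with a violet dye, and antibodies to TER-119, CD31, CD45, CD24 and CD49f marked blood, endothelial and epithelial cells. The study asked what the loss of GLIS2, a zinc-finger factor of the GLI-similar family, changes in these cells.

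In an EMT, epithelial cells lose junctions and polarity and take on mesenchymal traits. SNAIL and ZEB proteins carry zinc fingers that bind E-box sequences in the promoters of epithelial genes such as Cdh1 and silence them, while TWIST proteins are basic helix-loop-helix factors that pair with E proteins. In the mammary gland Snai2, which encodes Slug, is a gene of basal cells, though not necessarily of them alone. Zeb1, Zeb2, Twist1, Twist2 and Prrx1 are active in fibroblasts and other mesenchymal cells of the stroma.

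The E-box that Snail and Zeb factors prefer reads CAGGTG on one strand and CACCTG on the other. It was looked for on both strands of the 300 bases around the start of each gene, from 250 before to 50 after it, in RefSeq sequences of GRCm38.p6. Of all 32851 promoter windows, 20.2% held it. Of the 17 epithelial genes known to be repressed in EMT that are followed below, 11 had an entry, and the window nearest to the annotated start held the sequence in 9 of them (81.8%). Counting a gene with the E-box in any of its windows gave 10 of 11, against 22.6% of all 27025 genes. Of the 9 transcription factors, 5 had an entry (Snai1, Zeb2, Twist1, Twist2 and Prrx1), and Snai1 held the E-box, 126 bases before its start. Of the 15 mesenchymal genes, 9 had an entry and 1 held it. The 30 bases around the first E-box with at least 12 bases on either side before the start show the Snai1 site beside those of 6 epithelial genes, with each CAGGTG or CACCTG in capitals. Lsr has a further copy before the one shown, and the upstream copy of Cldn4 lies too close to the start for such a window. The Rab25 window holds a second copy.
Snai1, chr2:167538057-167538086, plus strand: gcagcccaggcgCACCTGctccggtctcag
Epcam, chr17:87635780-87635809, plus strand: gccagtagggccCACCTGctggaggaccgg
Crb3, chr17:57062071-57062100, plus strand: cccctgtgcttaCACCTGctcatttccgcc
Elf3, chr1:135258595-135258624, minus strand: gaatatgcaaatCACCTGggacagggagcc
Rab25, chr3:88548326-88548355, minus strand: catcgctccaccCACCTGtgcccCAGGTGc
Lsr, chr7:30973671-30973700, minus strand: ggcccctctcggCAGGTGgagcacgcccag
Patj, chr4:98395795-98395824, plus strand: tggagagcggccCAGGTGaggaggcggccg
These are matches of letters in a window, counted without a test. The epithelial list holds known targets of Snail and Zeb factors and was not an independent choice.

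Total counts lay between 24996524 and 31393917 per library, edgeR's common biological coefficient of variation over all genes was 37.4%, and no library was a copy of another. Values below are CPM, the estimated counts scaled to library size by edgeR's TMM method. Glis2 transcripts were counted in every library. The counts were 671, 663 and 510 in the Glis2+/+ libraries and 252, 509 and 510 in the Glis2-/- libraries, with a log2 fold change of -0.57 (SE 0.22, n = 3 per genotype, edgeR adjusted p = 0.906). The table gives no reads per exon, so these counts do not check the allele.

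Epithelial markers of both layers were high in every library, with a mean log2 CPM of 8 basal markers between 8.33 and 9.14 and of 12 luminal markers between 7.51 and 8.47. Markers of fibroblasts, which are not epithelial, were also high and uneven. The mean log2 CPM of 12 fibroblast markers was 7.68, 6.31 and 7.63 in the Glis2+/+ libraries and 7.17, 6.63 and 7.49 in the Glis2-/- libraries, and their summed CPM ran from 2899 to 9124. Replicate 2 was the lowest of each genotype. In bulk samples, fewer cells of a type and less RNA per cell cannot be told apart.

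None of the 9 factors was called between the genotypes. The edgeR quasi-likelihood test called 0 of 21236 genes (0%) with thresholds of 0.05 on the adjusted p and 0.58 on the size of the log2 fold change, and gave a smallest adjusted p of 0.392. An unadjusted p under 0.05 was reached by 0 of the 9 factors and by 5.32% of all genes. In some of the 15 alternative settings that count of factors was 2 or 3, and in the rest it was 0. There were 2 when low counts were not filtered (5.36% of all genes), with the replicate block (6.06%), with the fibroblast covariate (8.73%) and without Glis2-/- replicate 3 (6.00%). There were 3 without Glis2+/+ replicate 2 (6.03%) and without replicate 2 of both genotypes (5.13%). Values without overlap between the genotypes were found for 0 of the 9 and for 11.7% of all genes. By DESeq2 with shrinkage by apeglm, 45 genes (0.165% of those with an adjusted p) were called, and again 0 of the 9. The shrinkage raised convergence warnings for some genes and brought the 9 log2 fold changes to between -1.36e-05 and 8.83e-07, so these calls are less certain. Of the 9 factors, 4 had a higher and 5 a lower estimate in the Glis2-/- libraries, with a median log2 fold change of -0.25, against 10961 higher, 10275 lower and a median of 0.01 over all genes tested.

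**Figure D1:**
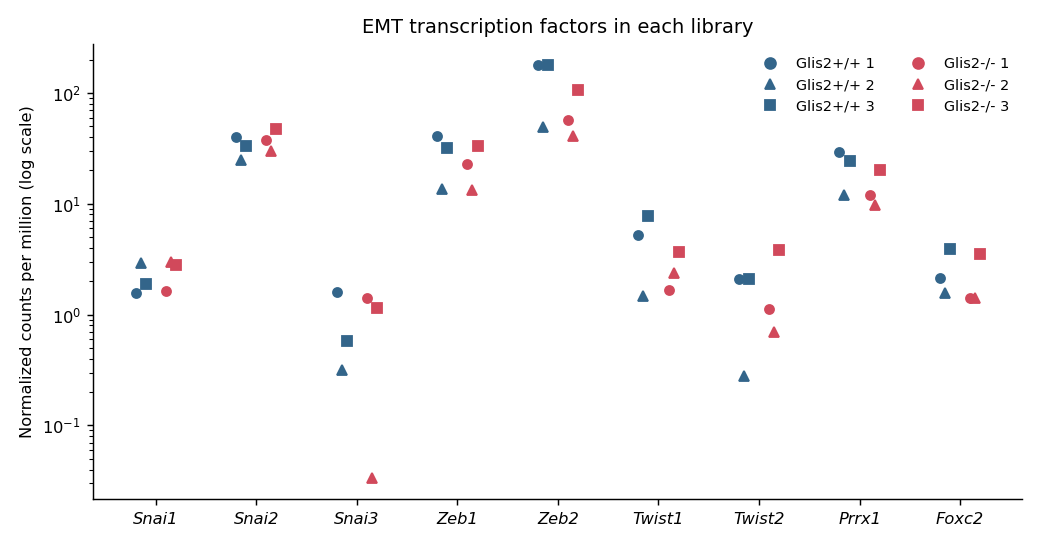
CPM of the 9 genes on a log scale in the Glis2+/+ libraries (blue) and the Glis2-/- libraries (red), with 1 point per mouse and the symbol giving the replicate. The genotypes overlap for every gene, and replicate 2 (triangles) is the lowest of both genotypes for Snai2, Snai3, Zeb1, Zeb2, Prrx1 and Twist2.

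Compared per length, Zeb2 was the most abundant of the 9 transcripts. Its level was 9.8 ± 5.94 TPM (SD, n = 6 libraries), followed by Snai2 at 4.13 ± 0.84, Zeb1 at 2.9 ± 1.3 and Prrx1 at 1.2 ± 0.522 TPM. Twist1 (0.565 ± 0.422 TPM), Snai1 (0.343 ± 0.091), Twist2 (0.268 ± 0.188), Foxc2 (0.2 ± 0.106) and Snai3 (0.127 ± 0.0917) were below 1 TPM on average. A single transcript, Gm23935, held 83.0% to 85.7% of the TPM of a library, which lowers the TPM of every other gene without changing their order.

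Zeb2 exceeded Snai2, Zeb1 exceeded Prrx1 and Prrx1 exceeded Twist1 in 6 of 6 libraries, each with p = 0.0312 by a two-sided exact sign-flip permutation test on log2(TPM + 1), the smallest that 6 libraries can give. Over the 8 pairs of neighbours this became 0.0832 after Benjamini-Hochberg adjustment of the permutation p, so no pair passed the adjusted test. Their mean differences on this scale were 0.91 (SD 0.65), 0.79 (SD 0.28) and 0.49 (SD 0.28). Snai2 exceeded Zeb1 in 5 of 6 libraries (exact p = 0.0625, adjusted 0.125), and the 5 lowest genes changed places from library to library.

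**Figure D2:**
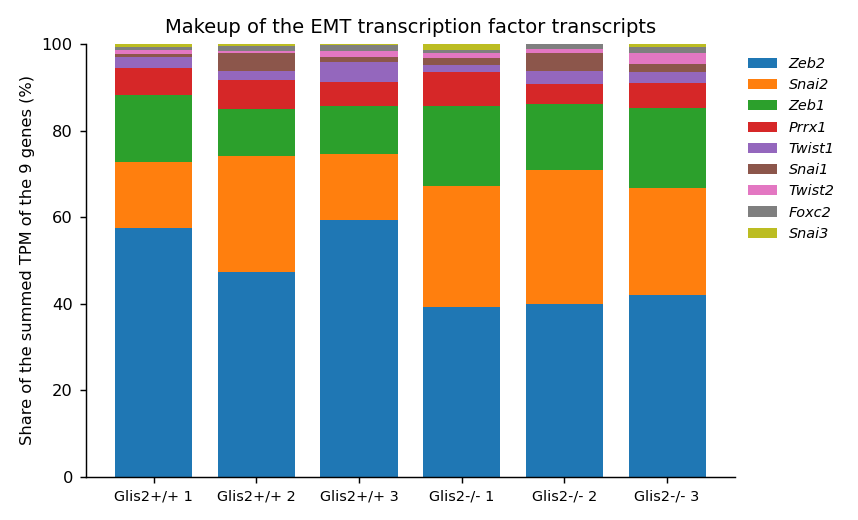
Share in percent of the summed TPM of the 9 genes that each gene held in each library, stacked to 100. In Glis2+/+ libraries Zeb2 made up 47.4% to 59.3%, in Glis2-/- libraries 39.2% to 41.9%.

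Snai2 was the steadiest of the 9 genes between mice. Its protein Slug is the Snail family factor of basal mammary cells. Its CPM was 39.7, 24.9 and 33.2 in the Glis2+/+ libraries and 37.7, 29.7 and 47.0 in the Glis2-/- libraries. The highest value was in Glis2-/- replicate 3 and the lowest in Glis2+/+ replicate 2, and the genotypes overlapped. Mean levels were 32.6 ± 7.46 and 38.1 ± 8.70 (SD, n = 3), a log2 fold change of 0.23 (SE 0.22, edgeR adjusted p = 0.947). The 95% interval of -0.27 to 0.72 corresponds to between 0.828 and 1.65 times the Glis2+/+ level, the narrowest among the 9. Leaving out 1 library moved the estimate between 0.03 (without Glis2-/- replicate 3) and 0.38 (without Glis2+/+ replicate 1). Its biological coefficient of variation was 20.9%. The gene lies on chr16:14705852-14709385 (GRCm38, plus strand).

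The basal markers themselves had a higher estimate in the Glis2-/- libraries for 8 of 8 genes, with a median log2 fold change of 0.42 and 5 of 8 at an unadjusted p under 0.05, against 5.32% of all genes, though none was called. This count was 3 of 7 for immune, 2 of 6 for pericyte, 1 of 4 each for adipocyte and Schwann cell and 0 for luminal, fibroblast and endothelial markers. Set against their mean level, Snai2 differed by -0.18 between the genotypes on the log2 scale (two-sided exact permutation p = 0.6). The Snai2 level correlated with the basal marker level across the 6 libraries with r = 0.498 and rho = 0.6 (exact permutation p = 0.306 and 0.242, adjusted 0.548 and 0.436 over 18 relations), and without the pair of libraries farthest from the median basal level r was 0.431.

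Counts were low for Snai1, which encodes Snail itself. It had between 41 and 90 counts per library, with a CPM of 1.56, 2.94 and 1.88 in the Glis2+/+ libraries and 1.64, 3.01 and 2.81 in the Glis2-/- libraries. Each genotype held a library near 1.6 and a library near 3, and the ranges nearly coincided. The log2 fold change was 0.23 (SE 0.44, 95% interval -0.77 to 1.22, edgeR adjusted p = 0.977), and it was 0.03 with Glis2+/+ replicate 1 left out and 0.54 with replicate 2 left out. Snai1 lies on chr2:167538195-167542814 (plus strand). Per length, Snai2 exceeded Snai1 in every library. The ratio was lowest in replicate 2, at 6.6 in the Glis2+/+ and 7.71 in the Glis2-/- mouse, followed by replicate 3 at 13.8 and 13.1, and its mean log2 value was 3.61 in both genotypes (exact permutation p = 1.0).

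Snai3 is a further Snail family gene. Its counts were 49, 9 and 15 in Glis2+/+ mice against 35, 1 and 36 in Glis2-/- mice. Replicate 2 was the lowest of both genotypes. A genotype difference was not resolved. The log2 fold change of 0.05 had a 95% interval from -2.44 to 2.54 (SE 1.09, edgeR adjusted p = 0.998), and its sign turned when single libraries were left out. The biological coefficient of variation was 89.8%. The parts of low counts and of variation between mice in this interval were not tested. Snai3 lies on chr8:122454208-122460733 (minus strand).

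**Figure D3:**
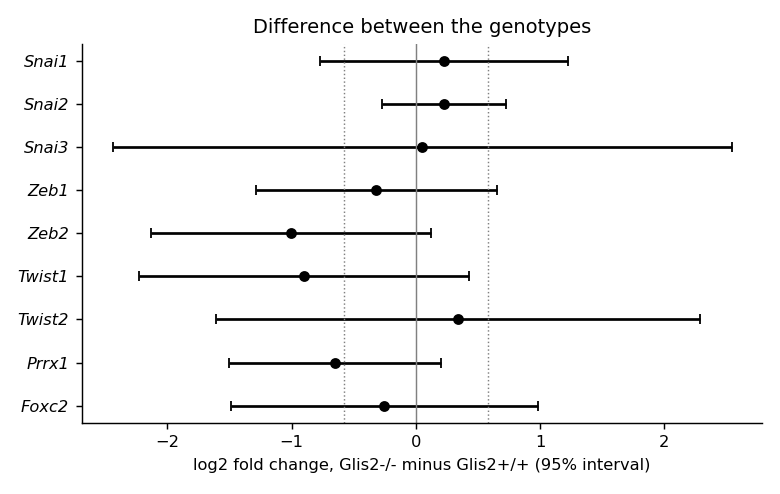
Log2 fold change of Glis2-/- against Glis2+/+ from the edgeR fit over all 21236 genes (points) with 95% intervals (bars), with dotted lines at the call threshold of 0.58 in each direction. All 9 intervals contain 0, that of Snai2 is the narrowest and that of Snai3 the widest.

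Zeb2 had the most negative estimate of the 9 genes. ZEB2, also named SIP1, is a repressor of Cdh1 and is also needed in neural crest derivatives, including Schwann cells. Its CPM was 179.9, 49.5 and 179.3 in the Glis2+/+ libraries and 56.6, 40.8 and 106.2 in the Glis2-/- libraries. Both high Glis2+/+ libraries exceeded all Glis2-/- libraries, but Glis2+/+ replicate 2 lay among the Glis2-/- values. The log2 fold change was -1.01 (SE 0.49, 95% interval -2.13 to 0.12, edgeR adjusted p = 0.906). The interval runs from 0.228 to 1.09 times the Glis2+/+ level, so that neither a strong fall nor no difference was outside it. Without Glis2+/+ replicate 2 the estimate was -1.40, and without Glis2-/- replicate 3 it was -1.50. Zeb2 lies on chr2:44983632-45117395 (minus strand), where Zeb2os is annotated on the opposite strand. Counts of Zeb2os were 18, 2 and 18 in Glis2+/+ mice against 0, 3 and 10 in Glis2-/- mice, too few to be tested.

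Zeb1, which represses Cdh1 and the miR-200 genes, had a CPM of 41.2, 13.7 and 31.9 in the Glis2+/+ libraries and 22.9, 13.3 and 33.3 in the Glis2-/- libraries. Replicate 2 of both genotypes was lowest and nearly equal, and the other libraries overlapped. The log2 fold change was -0.32 (SE 0.42, 95% interval -1.29 to 0.65, edgeR adjusted p = 0.973), and it was -0.69 when Glis2-/- replicate 3 was left out and 0.01 when Glis2+/+ replicate 1 was. Zeb1 lies on chr18:5591860-5775467 (plus strand).

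The ratio of the ZEB genes to each other did not overlap between the genotypes. Zeb2 was 3.72, 4.42 and 5.31 times as abundant per length as Zeb1 in the Glis2+/+ libraries, and 2.12, 2.62 and 2.27 times in the Glis2-/- libraries. All Glis2+/+ ratios were above all Glis2-/- ratios, with a difference of -0.93 on the log2 scale. The two-sided exact permutation p was 0.1, the smallest that 3 against 3 libraries can give, and 0.2 after adjustment over the 4 ratios computed. Ratios of normalized counts also did not overlap, at 4.36, 3.63 and 5.63 against 2.47, 3.06 and 3.19, with a smaller log2 difference of -0.63. These 4 ratios were chosen after the values were seen, and this permutation test on 3 against 3 libraries cannot pass a threshold of 0.05.

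Zeb2 over Snai2 per length was 3.74, 1.76 and 3.89 in the Glis2+/+ libraries and 1.4, 1.29 and 1.69 in the Glis2-/- libraries (log2 difference -1.02, exact permutation p = 0.1, adjusted 0.2). The values did not overlap per length. They did as ratios of normalized counts, where Glis2+/+ replicate 2 at 1.99 lay below Glis2-/- replicate 3 at 2.26.

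Twist1, a factor of mesoderm and cranial mesenchyme, had a CPM of 5.19, 1.47 and 7.75 in the Glis2+/+ libraries and 1.68, 2.37 and 3.64 in the Glis2-/- libraries. Glis2+/+ replicates 1 and 3 were above every Glis2-/- library, as for Zeb2, and replicate 2 was below every Glis2-/- library, which it was not for Zeb2. The log2 fold change was -0.90 (SE 0.58, 95% interval -2.23 to 0.43, edgeR adjusted p = 0.940). Without Glis2+/+ replicate 2 it was -1.33 and without replicate 3 it was -0.37. Twist1 lies on chr12:33957671-33959829 (plus strand).

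Twist2, also named Dermo1, was counted 65, 8 and 55 times in Glis2+/+ mice and 28, 21 and 121 times in Glis2-/- mice. Its highest library was Glis2-/- replicate 3 and its lowest Glis2+/+ replicate 2, and the genotypes overlapped. The log2 fold change of 0.34 had a 95% interval from -1.61 to 2.29 (SE 0.85, edgeR adjusted p = 0.981) and became -0.74 without Glis2-/- replicate 3. Twist2 lies on chr1:91801461-91848028 (plus strand). Twist1 over Twist2 per length was 2.67, 4.15 and 3.13 in the Glis2+/+ and 1.29, 3.1 and 0.915 in the Glis2-/- libraries (exact permutation p = 0.2, adjusted 0.267).

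Prrx1, a homeobox gene of limb and fibroblast mesenchyme, had a CPM of 29.4, 11.9 and 24.5 in the Glis2+/+ libraries and 11.9, 9.68 and 20.2 in the Glis2-/- libraries. The same pair of Glis2+/+ libraries was above all others, and replicate 2 overlapped with the Glis2-/- values. The log2 fold change was -0.65 (SE 0.37, 95% interval -1.50 to 0.20, edgeR adjusted p = 0.925), and it was -0.40 without Glis2+/+ replicate 1 and -1.04 without Glis2-/- replicate 3. Prrx1 lies on chr1:163245119-163313710 (minus strand).

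Foxc2, a forkhead gene known from lymphatic development and mesenchymal tumour cells, was low throughout. Its CPM was 2.14, 1.58 and 3.88 in the Glis2+/+ libraries and 1.40, 1.40 and 3.55 in the Glis2-/- libraries. Replicate 3 was highest in both genotypes and the values overlapped, with a log2 fold change of -0.25 (SE 0.54, 95% interval -1.49 to 0.98, edgeR adjusted p = 0.977). It was 0.19 without Glis2+/+ replicate 3 and -0.87 without Glis2-/- replicate 3. Foxc2 lies on chr8:121116171-121118895 (plus strand).

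Zeb2, Twist1 and Prrx1 shared a pattern of high Glis2+/+ replicates 1 and 3 and low values in most others, and their promoters are shown for this reason. The 250 bases before each start are given in the direction of transcription (GRCm38.p6). Each match to the CCAAT box, the sequence bound by NF-Y, is in capitals as CCAAT or, on the other strand, ATTGG.
Zeb2, chr2:45117443-45117692, minus strand: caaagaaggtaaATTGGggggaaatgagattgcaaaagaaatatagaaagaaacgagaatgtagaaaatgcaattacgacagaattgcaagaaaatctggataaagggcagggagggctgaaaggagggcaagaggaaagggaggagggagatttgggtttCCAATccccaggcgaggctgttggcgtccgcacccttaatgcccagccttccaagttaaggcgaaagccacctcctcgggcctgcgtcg
Twist1, chr12:33957421-33957670, plus strand: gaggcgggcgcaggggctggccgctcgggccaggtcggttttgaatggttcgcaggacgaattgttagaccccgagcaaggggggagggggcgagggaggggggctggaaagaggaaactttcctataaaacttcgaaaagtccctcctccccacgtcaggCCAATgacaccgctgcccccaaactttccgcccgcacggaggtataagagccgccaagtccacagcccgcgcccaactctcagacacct
Prrx1, chr1:163313651-163313900, minus strand: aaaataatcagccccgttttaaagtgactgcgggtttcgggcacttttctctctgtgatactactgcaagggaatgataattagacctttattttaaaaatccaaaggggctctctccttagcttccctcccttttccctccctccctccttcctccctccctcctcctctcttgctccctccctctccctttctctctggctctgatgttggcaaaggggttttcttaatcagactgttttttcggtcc
Neither CAGGTG nor the wider E-box CANNTG, of which it is 1 form, occurred in the 300 bases of these 3 genes, nor in those of Twist2, so that 4 of the 5 factors with an entry lacked CANNTG, while 72.3% of all windows held it. Zeb2 held 2 CCAAT boxes, Twist1 held 1, 89 bases before its start, and Prrx1 held 0. Of the 5 factors with an entry 4 held a CCAAT box, against 37.4% of all windows. These included Snai1 and Twist2, which did not share the library pattern. Of the epithelial genes 1 of 11 and of the mesenchymal genes 2 of 9 held it. These are matches of letters, and neither their number nor binding was tested.

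The levels of the 9 genes were compared with the fibroblast marker level of each library. Across the 6 libraries, Zeb1 correlated with it with r = 0.968 and rho = 0.886 (exact permutation p = 0.00694 and 0.0333), Zeb2 with r = 0.888 and rho = 0.943 (exact p = 0.0208 and 0.0167), and Prrx1 with r = 0.862 and rho = 0.943 (exact p = 0.0375 and 0.0167). Twist1 gave r = 0.821 and rho = 0.886 (exact p = 0.0611 and 0.0333) and Twist2 r = 0.93 and rho = 0.771 (exact p = 0.00833 and 0.103). Over the 18 relations computed, of 9 genes with 2 marker lists, none passed the Benjamini-Hochberg adjustment of the permutation p, the lowest being 0.075 for Zeb1 and Twist2. The libraries that were farthest from the median fibroblast level were replicate 2 of both genotypes. Without them r was 0.928 for Zeb1, 0.987 for Zeb2, 0.995 for Prrx1, 0.935 for Twist1 and 0.589 for Twist2, over 4 libraries.

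For the Snail genes the relation did not hold without 2 libraries. Snai2 had r = 0.812 and rho = 0.714 with the fibroblast level (exact permutation p = 0.0528 and 0.136, adjusted 0.183 and 0.306), but r was -0.07 without both replicates 2, so that the relation rested on those libraries. Snai1 had a negative r of -0.673 and rho of -0.771 (exact permutation p = 0.16 and 0.103, adjusted 0.32 and 0.306), and r was 0.05 without them. For Snai3 and Foxc2, r was 0.685 and 0.709, with rho of 0.714 and 0.6 (exact permutation p = 0.111 and 0.136 for r, 0.136 and 0.242 for rho), and without the same libraries r was -0.309 and 0.667. Whether the members differ from each other in this relation was not tested.

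**Figure D4:**
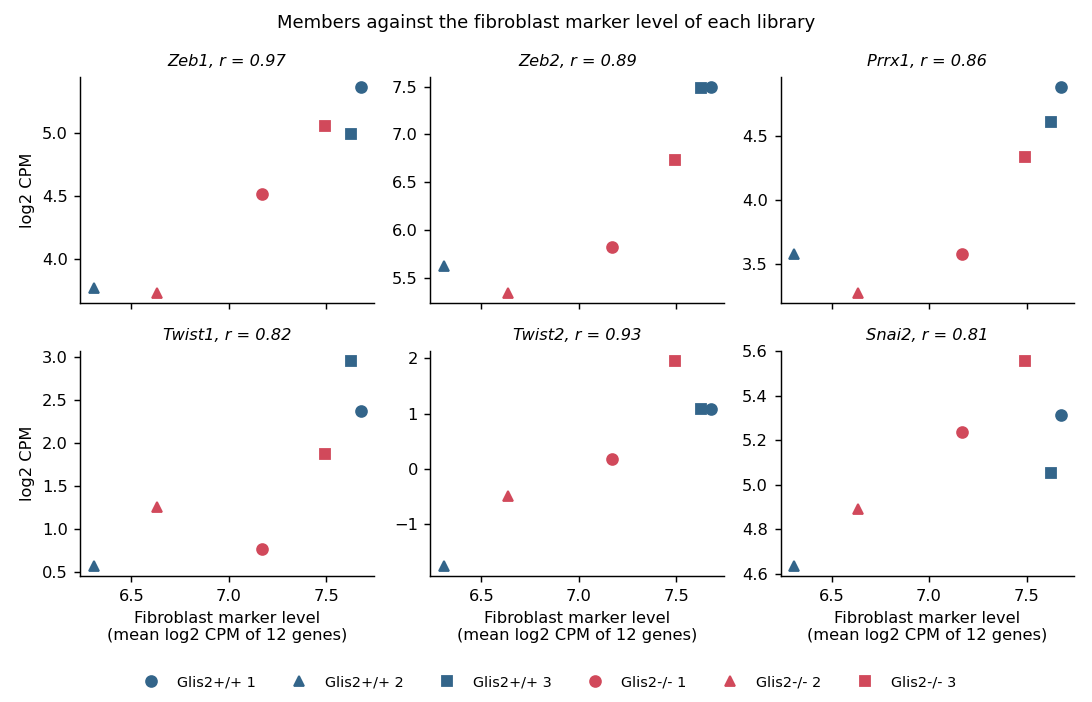
Log2 CPM of 6 members (vertical axes, each with its own range) against the mean log2 CPM of 12 fibroblast markers (horizontal axis) in the Glis2+/+ (blue) and Glis2-/- (red) libraries, with Pearson's r above each panel. Zeb1 lies along a rising line, and Zeb2 and Prrx1 rise with Glis2-/- libraries below the Glis2+/+ libraries of like fibroblast level.

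Relative to the fibroblast level, Zeb2 and Prrx1 were lower in every Glis2-/- library than in any Glis2+/+ library. The log2 ratio of Zeb2 to the fibroblast level was -0.186, -0.676 and -0.138 in the Glis2+/+ libraries and -1.35, -1.28 and -0.762 in the Glis2-/- libraries. The difference was -0.80 (two-sided exact permutation p = 0.1, the smallest possible). Of the 18 ratios of 9 genes to 2 lists, 2 did not overlap, and no p passed adjustment over the 18. Over all genes, 11.7% of plain levels did not overlap, so separation was about as common there as among these 18 ratios. For Prrx1 the log2 ratios were -2.80, -2.73 and -3.01 against -3.59, -3.36 and -3.15, a difference of -0.52 (exact permutation p = 0.1). Taking the summed CPM of the markers in place of their mean, the difference for Prrx1 was -0.31 (exact permutation p = 0.3), and the genotypes overlapped. That for Zeb2 was -0.58 (exact permutation p = 0.1). For Zeb1 the ratio varied little, with an SD over all libraries of 0.202 against 0.691 for its level, and the genotypes differed by -0.17 (exact permutation p = 0.4).

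With the fibroblast level as a covariate in the edgeR fit, added after seeing the data, the log2 fold change of Zeb2 was -0.74, that of Twist1 -0.51, that of Prrx1 -0.52 and that of Zeb1 -0.15, with 0 of the 9 genes called. Without replicate 2 of either genotype, the estimates were -1.14 for Zeb2, -1.28 for Twist1 and -0.74 for Prrx1, again with none called.

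Other stromal lists were set beside Zeb2. Of 4 Schwann cell markers 4 had a lower estimate in the Glis2-/- libraries, with a median log2 fold change of -0.63 and 0 called. Their mean log2 CPM was 6.23, 4.93 and 6.18 in the Glis2+/+ libraries and 4.83, 4.94 and 5.65 in the Glis2-/- libraries, and their summed CPM ran from 138.2 to 320.0 and from 117.8 to 200.6. None of the 4 markers was at 0 in any library. The 6 pericyte markers were lower in 6 of 6, with a median of -0.41, summed CPM from 337.3 to 599.2 in the Glis2+/+ and from 320.6 to 459.9 in the Glis2-/- libraries. The 7 endothelial markers did not share the Zeb2 pattern: their mean log2 CPM was 6.34, 4.07 and 5.93 in the Glis2+/+ libraries and 5.74, 4.53 and 6.40 in the Glis2-/- libraries, highest in Glis2-/- replicate 3.

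Relative to the Schwann cell markers, the log2 ratio of Zeb2 was 1.26, 0.701 and 1.30 in the Glis2+/+ libraries and 0.991, 0.414 and 1.09 in the Glis2-/- libraries. These values overlapped, with a difference of -0.26. Relative to the pericyte markers the difference was -0.44, with overlap, and relative to the endothelial markers it was -1.01, without overlap. For Prrx1 the difference was 0.02 relative to the Schwann cell markers and -0.16 relative to the pericyte markers, both with overlap, and -0.73 relative to the endothelial markers, also with overlap. Relative to the immune markers the difference was -1.27 for Zeb2 and -0.99 for Prrx1, both without overlap. Relative to the adipocyte markers it was 0.22 and 0.49, both with overlap. These ratios were added after the data were seen, and the part of these cell types in the Zeb2 and Prrx1 values was not tested.

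**Figure D5:**
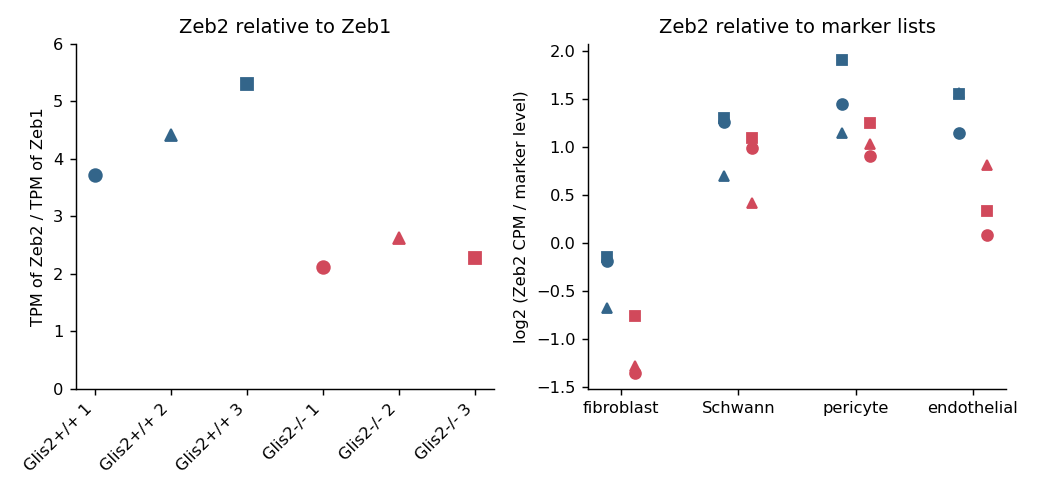
Left, the TPM of Zeb2 divided by that of Zeb1 in each library. Right, the log2 ratio of the Zeb2 CPM to the mean level of 4 marker lists, with Glis2+/+ libraries in blue, Glis2-/- libraries in red and the symbols as on the left. The genotypes separate for the ZEB ratio and relative to the fibroblast and endothelial lists, and overlap relative to the Schwann cell and pericyte lists.

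The remaining lists were described in the same way. Of 7 endothelial markers 3 were higher and 4 lower (median log2 fold change -0.13), of 12 fibroblast markers 4 and 8 (-0.21), of 12 luminal markers 8 and 4 (0.06), of 7 immune markers 5 and 2 (0.37) and of 4 adipocyte markers 0 and 4 (-0.74), with 0 called in each.

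Among other transcription factors tied to EMT, 2 of 8 were higher and 6 lower, with a median log2 fold change of -0.15 and 0 called. Gsc, which encodes the homeobox factor Goosecoid of the gastrula organizer, had the largest difference of this list. Its counts were 48, 25 and 38 in Glis2+/+ mice against 5, 0 and 8 in Glis2-/- mice. All Glis2+/+ values were above all Glis2-/- values (log2 fold change -3.06, SE 1.04, edgeR adjusted p = 0.906). Of the 8 genes 1 was without overlap, against 11.7% of all genes. The more abundant Sox4 and Sox9, both SOX factors of epithelial progenitors, had log2 fold changes of 0.19 (SE 0.13) and -0.10 (SE 0.27).

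None of the partners of the TWIST and SNAIL proteins was called. Of 7 E proteins and Id proteins 5 were higher and 2 lower (median 0.06), with 0 called. Id3, which blocks E proteins, had a CPM of 39.1, 22.1 and 37.6 in the Glis2+/+ libraries and 42.5, 48.4 and 50.4 in the Glis2-/- libraries. Every Glis2-/- value was above the Glis2+/+ values (log2 fold change 0.52, SE 0.21, edgeR adjusted p = 0.906). Of the 7 genes 1 was without overlap, against 11.7% of all genes. Tcf12, an E protein, differed by 0.02 (SE 0.10).

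Of 13 corepressors that SNAIL and ZEB proteins recruit, 8 were higher and 5 lower, with a median of 0.03 and 0 called. Sin3a, a scaffold of histone deacetylase complexes, had a log2 fold change of -0.26 (SE 0.09) and Ctbp2, a corepressor of ZEB proteins, one of 0.26 (SE 0.11), and both, with Suz12 of the Polycomb complex (-0.21, SE 0.10), were without overlap between the genotypes (3 of 13, against 11.7% of all genes) and had an edgeR adjusted p of 0.906. Smarca4 and Kdm1a, a chromatin remodeller and a histone demethylase, differed by -0.10 (SE 0.08) and 0.06 (SE 0.11). Of 8 genes for the turnover of Snail proteins, such as the kinase Gsk3b (0.01, SE 0.09) and the F-box genes Fbxl14 (-0.22, SE 0.13) and Fbxl5 (0.20, SE 0.10), 5 were higher and 3 lower, with a median of 0.02 and 0 called. Without overlap, 1 of the 8 (Fbxl5) was above and 1 (Fbxl14) below the Glis2+/+ values. Transcript levels do not measure Snail protein, which is controlled by degradation.

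The genes downstream of the 9 factors did not pass the test either. Of 17 epithelial genes repressed in EMT 8 were higher and 9 lower, with a median log2 fold change of -0.05 and 0 called. Cdh1, which encodes E-cadherin, had a CPM of 410.4, 718.0 and 521.5 in the Glis2+/+ libraries and 523.8, 648.6 and 383.7 in the Glis2-/- libraries (log2 fold change -0.08, SE 0.23, edgeR adjusted p = 0.982). Replicate 2 was the highest of both genotypes, the reverse of Zeb1 and Zeb2. The mean log2 CPM of the luminal markers was also highest in replicate 2, at 8.46 in the Glis2+/+ and 8.47 in the Glis2-/- library. Whether Cdh1 followed the luminal level or the ZEB genes was not tested. Epcam, with an E-box shown above, differed by -0.11 (SE 0.28) and had the same highest libraries.

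Of 15 mesenchymal genes induced in EMT 7 were higher and 8 lower, with a median of -0.06 and 0 called. Mmp2, a secreted matrix protease, was above the Glis2+/+ values in every Glis2-/- library, at 102.3, 108.3 and 135.5 CPM against 99.0, 69.0 and 99.6 (log2 fold change 0.37, SE 0.17, edgeR adjusted p = 0.906). Of the 15 genes 1 was without overlap, against 11.7% of all genes. Sparc, a matrix glycoprotein, differed by -0.07 (SE 0.30). The 5 genes of the miR-200 family, whose mature products target Zeb1 and Zeb2, were not testable: the only counts were 3 for Mir200c in Glis2+/+ replicate 3, in a library type that does not select small RNA.

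Genes with the library pattern nearest to each factor were ranked by the root mean square difference of centred log2 CPM over the 6 libraries, among 17101 genes with a mean CPM of at least 1. Nearest to Snai2 were Zfp831, Gmcl1 and Pxdn, with differences of 0.0368, 0.0426 and 0.0463 against a spread of 0.298 for Snai2 itself. Nearest to Zeb1 were Sox7, an endothelial SOX factor, Rapgef3 and Cspg4, the NG2 proteoglycan of pericytes and a member of the pericyte list (0.0957 to 0.111, spread 0.63). Nearest to Zeb2 were Hoxc8, the neural adhesion gene Chl1 and Gatm, an enzyme of creatine synthesis (0.115 to 0.127, spread 0.867). Prrx1 was nearest to Kcnab2, Gm48128 and Naalad2 (0.0939 to 0.105, spread 0.595), and Twist1 to CT025731.2, Ttyh1 and AC109138.8 (0.129 to 0.171, spread 0.855). Twist2 was nearest to Lhx6, Ifit3 and Pcdh12 (0.192 to 0.269, spread 1.21). For the low genes Snai1 (Cdv3-ps, Nrtn and Gm2058), Foxc2 (Oxct2a, Gm36955 and Npff) and Snai3 (Pcsk2, Slco5a1 and Ifi203-ps), the lowest differences were 0.101, 0.167 and 0.266. These ranks describe 6 libraries and were not tested.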

How the data were processed

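Total RNA of sorted mammary epithelial cells from 3 Glis2+/+ and 3 Glis2-/- mice was sequenced after depletion of ribosomal fragments, with 1 library per mouse. The authors ran Salmon 1.2.1 for estimated counts on an mm10 transcriptome with the genome as a decoy and summed them with tximport; the deposited expected counts are rounded to whole numbers and not normalized. The deposited log2 values are log2(TPM + 1) by the authors. Total counts were 24996524 to 31393917 per library. As sums of estimates, counts of overlapping genes such as Zeb2 and Zeb2os depend on how reads were shared. Symbols and positions came from GENCODE on GRCm38 (mm10).

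Counts were tested with edgeR 4.0.16 in R 4.3.3 (filterByExpr, TMM, quasi-likelihood test, Benjamini-Hochberg over 21236 genes), with thresholds of 0.05 on the adjusted p and 0.58 on the size of the log2 fold change. The study's methods name DESeq2 for this, which was run as an alternative (DESeq2 1.42.0, apeglm 1.24.0), as were limma 3.58.1 on TPM with offsets of 1 and 0.1, other filters and size factors, the replicate number as a block and the omission of single mice. Log2 CPM values used a prior of 0.5 counts. Single values were compared by exact permutation. The code was tested on simulated data. The members, gene lists and tests were chosen with earlier results of these data known. All 9 members were named, with Glis2; from each list, the 2 most abundant genes and the 2 of smallest p were eligible, and for each member the 3 genes of nearest pattern. Not every eligible gene is reported here. Crb3, Elf3, Rab25, Lsr, Suz12, Zeb2os and Mir200c were named outside this rule, after their values were seen.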

Additional observations from a re-analysis of the deposited data

How the results depend on the processing

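None of the 9 factors was called under any of 15 alternatives, 13 planned and 2 added after seeing the data, and their lowest adjusted p was 0.106, for Zeb2. Over all genes the count of calls was 0 with edgeR and in 11 of the alternatives, 45 by DESeq2 with apeglm, 40 without a filter on low counts, 1 by limma on log2(TPM + 0.1) and 5 with the fibroblast covariate. The cause was not tested. Of the 9 factors 5 kept their direction throughout. The estimate for Snai3 became -0.003 and -0.076 by limma on log2(TPM + 1) and log2(TPM + 0.1), where those for Snai1 (0.006 and 0.033), Snai2 (0.041 and 0.048), Zeb1 (-0.055 and -0.047) and Twist2 (0.025 and 0.100) were smaller in size. With the offset of 1, Twist1 was -0.345, Prrx1 -0.303 and Foxc2 -0.077. Leaving out 1 library at a time gave -0.473 to 0.928 for Snai3, -0.693 to 0.013 for Zeb1, -0.736 to 0.737 for Twist2 and -0.866 to 0.190 for Foxc2, and for Zeb2 -1.502 to -0.745. With a minimum of 10 counts in every library Snai3 and Twist2 had no value. Relative to the summed fibroblast CPM, the difference turned to 0.0463 for Zeb1 and 0.0193 for Foxc2. With genotype means removed, r with the basal level turned to 0.194 for Zeb1, 0.01 for Zeb2 and 0.191 for Prrx1.

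The labels give both genotypes replicates 1 to 3 and do not say whether the numbers pair the mice. Deviations of libraries with the same number correlated with r of -0.016, 0.13 and 0.011, though replicate 2 had the lowest fibroblast level of both genotypes. These values cannot settle whether the mice were paired. With a replicate block, 0 genes were called, the estimates were -0.902 for Zeb2 and -0.708 for Twist1, and that for Snai3 turned to -0.406. The edgeR p-values set the difference between the genotypes against the variation between mice, with 3 mice per genotype. The sign-flip and correlation p-values came from all 6 libraries with the genotypes pooled. Counts per library were at most 121 for Snai1, Snai3, Twist2 and Foxc2. The SE was 0.44 for Snai1 and 0.49 for Zeb2, which had far more counts. The part of low counts in the width of the intervals was not tested.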
